A study of Mus musculus with 9 samples.

Results

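The genes described here encode the proteins that build the desmosome and the related plaque of cornified cells. They are the transmembrane cadherins Dsg2 and Dsc2, the armadillo proteins Jup, Pkp1, Pkp2 and Pkp3, the plakins Dsp, Ppl and Evpl, and the tetraspan protein Perp. The members were taken by gene symbol from the count table, and all 10 of 10 were found among 55276 symbols. All 10 were also among the 17672 genes that passed the filter on low counts, although Dsg2 and Dsc2 passed through the control libraries alone, with fewer than 10 counts in every library of both knockout clones.

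The desmosome is a spot-like junction that couples the keratin filaments of neighbouring epithelial cells. Outside the cell, desmogleins and desmocollins bind one another. Inside, their tails bind plakoglobin (Jup) and the plakophilins, and desmoplakin (Dsp) ties this plaque to the filaments, while periplakin (Ppl) and envoplakin (Evpl) are plakins best known from the cornified envelope of skin. In the liver, desmosomes join bile duct cells and hepatocytes, and carcinomas that lose epithelial character often carry fewer of them.

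The cells were PPTR cells, a mouse intrahepatic cholangiocarcinoma line adapted to 2D culture from liver cancer organoids. All groups share the Prom1CreERT2 driver, the Ptenflx/flx and Tp53flx/flx alleles and the Rosa-ZsGreen reporter, and were grown in DMEM with serum. Vcam1 ctrl cells, which the sample labels call WT, were compared with Vcam1 KO1 and Vcam1 KO2 cells, each of which is 1 single-cell clone made with Cas9 and a guide to exon 2 of Vcam1. Each condition had 3 libraries of stranded mRNA from different passages, and which passage gave which library was not used here. Because each knockout is 1 clone, the effect of the knockout and the difference of that clone from the control culture cannot be told apart. Whether the control cells had themselves been through Cas9 delivery and cloning is not given in the sources used here. The p values measure the spread between cultures of a clone, not between independent clones, and both clone comparisons share the same 3 control libraries.

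The libraries held between 53415907 and 125223073 counts. Vcam1 itself stood at 248, 221 and 329 CPM (counts scaled to the size of the library with TMM factors) in the Vcam1 ctrl libraries, at 98.8, 92.4 and 128 CPM in KO1 and at 119, 99.4 and 83.0 CPM in KO2. The paper reports that both clones lost Vcam1 expression, as measured with quantitative RT-PCR and flow cytometry. Counts per gene do not show whether the remaining transcripts carry the edit. Within each clone, replicate 3 was farther from the other two than they were from each other. The chi-square per degree of freedom between counts of replicates 1 and 2 was 36.0 in KO1 and 35.8 in KO2, against 240 and 275 for the KO1 pairs and 166 and 113 for the KO2 pairs that include replicate 3. The control pairs lay at 84.4 to 169. This measure grows with the number of counts, and the libraries differed in depth, so its values are not compared between groups.

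The desmosomal genes fell together in both clones. All 10 members were called lower in KO1 (adjusted p under 0.05 in the quasi-likelihood test of edgeR, adjusted by Benjamini-Hochberg over all genes tested). Of all genes tested, 30.0% were called lower and 29.9% higher in KO1. In KO2, 9 of 10 were called lower, where 26.1% of all genes were called lower and 25.3% higher. The median log2 fold change over the members was -5.04 in KO1 and -4.23 in KO2, against 0.02 and 0.00 over all genes tested. The control libraries lay above every library of the clone for 10 of 10 members in KO1, where 33.1% of all genes showed that separation, and for 9 of 10 in KO2, where 31.4% did. Pkp3 was the exception in KO2. These counts lean partly on genes such as Dsg2 and Dsc2, which entered the test because the control cells expressed them. In bulk RNA, fewer cells that express a gene and less RNA per cell cannot be told apart.

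**Figure D1:**
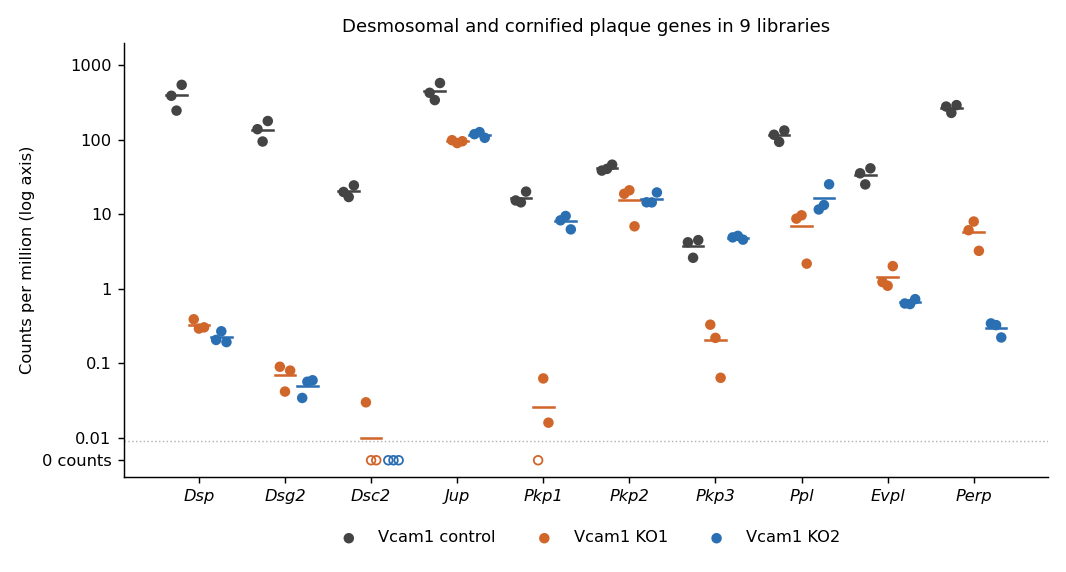
Level of each of the 10 genes in CPM on a log axis, with 1 point per library, a bar at the mean of the 3 libraries, and open circles on the lowest line for libraries with 0 counts. Control points lie above all clone points for every gene except Pkp3, where the KO2 libraries, at 4.56 to 5.12 CPM, lie above the control libraries.

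The desmosomal cadherins were nearly absent from both clones. Dsg2 (chr18:20558074-20604521, plus strand, GRCm38), the desmoglein of simple epithelia, had 17346, 5117 and 14068 counts in the Vcam1 ctrl libraries, 6, 4 and 5 counts in KO1 and 2, 4 and 4 counts in KO2. Its mean level was 137 ± 41.8 CPM (SD, n = 3) in control cells, and it was 1942-fold lower in KO1 (log2 fold change -10.96, standard error 0.36, adjusted p = 5.9e-08) and 2737-fold lower in KO2 (-11.35, 0.37, 8.0e-08). No clone library came within 3 orders of magnitude of the control mean. Dsc2 (chr18:20030633-20059554, minus strand), the desmocollin that pairs with it, had 2493, 921 and 1925 counts in control libraries. KO1 libraries held 2, 0 and 0 counts, which places Dsc2 2324-fold lower than control with a 95% exact counting interval of 643 to 19196. All 3 KO2 libraries held 0 counts, which at a floor of 3 counts per library makes Dsc2 at least 443-fold lower. These bounds cover counting error only. KO1 and KO2 were both at or under that floor, so no fold between the clones is given.

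Dsg2 and Dsc2 lie in the cluster of desmosomal cadherin genes on chromosome 18, which also holds Dsc1, Dsc3, Dsg1a, Dsg1b, Dsg1c, Dsg3 and Dsg4, the forms typical of stratified epithelia. None of these 7 passed the filter. Dsg3 was the most detected, at 6 to 16 counts in control libraries, and Dsc1 reached 7 counts, while Dsc3, Dsg4 and the near-identical copies Dsg1a, Dsg1b and Dsg1c had 3 counts or fewer in every library. PPTR cells thus carried the Dsg2 and Dsc2 pair, and neither clone showed another desmosomal cadherin above 6 counts.

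Desmoplakin is the plakin that anchors keratin filaments at the plaque. Dsp (chr13:38151294-38198577, plus strand) had 48675, 13289 and 43007 counts in control libraries, 26, 28 and 19 in KO1 and 12, 19 and 13 in KO2. In CPM the control libraries were at 388, 245 and 544, and the clone libraries between 0.192 and 0.389. The spread within the control cells was wide, with replicate 2 lowest, yet it was small beside the gap to the clones. Dsp was 1195-fold lower in KO1 (log2 fold change -10.22, standard error 0.38, adjusted p = 8.5e-08) and 1766-fold lower in KO2 (-10.77, 0.39, 1.0e-07). The clones differed by 0.54 on the log2 scale (95% interval -0.32 to 1.41, adjusted p = 0.29), although all 3 KO1 libraries lay above all 3 KO2 libraries, as they did for 28.7% of all genes.

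Plakoglobin, the armadillo protein that binds cadherin tails in both desmosomes and adherens junctions, kept the highest level of the members in both clones. Jup (chr11:100368958-100397763, minus strand) stood at 425, 340 and 575 CPM in control libraries, at 98.4, 90.0 and 95.3 CPM in KO1 and at 119, 126 and 106 CPM in KO2. The groups did not overlap. The KO1 mean was 21.2% of the control mean (log2 fold change -2.24, standard error 0.19, adjusted p = 7.4e-06) and the KO2 mean 26.2% (-1.93, 0.18, 2.2e-05). Between the clones the difference was -0.31 (95% interval -0.70 to 0.09, adjusted p = 0.20).

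RefSeq promoter sequences of GRCm38.p6 were matched for 2 of the 10 members, Dsp and Jup. Dsp was among the members that fell to a trace in both clones, as Dsg2 and Dsc2 did, and Jup kept the highest level. The 250 bases before each RefSeq start are shown, 5′ to 3′ on the gene's own strand, with GC boxes (GGGCGG on either strand) in capitals. The Dsp stretch is chr13:38151044-38151293 on the plus strand and the Jup stretch is chr11:100397791-100398040 on the minus strand.
Dsp: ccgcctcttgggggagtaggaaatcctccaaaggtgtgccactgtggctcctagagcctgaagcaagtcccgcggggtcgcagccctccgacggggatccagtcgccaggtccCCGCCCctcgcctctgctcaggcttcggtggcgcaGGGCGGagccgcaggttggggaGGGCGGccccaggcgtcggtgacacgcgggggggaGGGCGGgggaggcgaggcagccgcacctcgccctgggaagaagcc
Jup: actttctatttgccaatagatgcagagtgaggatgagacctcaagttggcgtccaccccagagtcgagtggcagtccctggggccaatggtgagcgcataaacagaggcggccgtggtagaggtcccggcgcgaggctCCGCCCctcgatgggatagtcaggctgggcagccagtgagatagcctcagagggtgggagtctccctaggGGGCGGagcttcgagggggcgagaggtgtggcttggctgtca
The Dsp stretch was 72.4% G and C with 22 CpG dinucleotides and held 4 GC boxes, whose first bases lie at -137, -102, -80 and -45 from the start. The Jup stretch was 62.0% G and C with 13 CpG dinucleotides and held 2 GC boxes, at -112 and -42. Of 32536 promoter stretches of the same length, 33.0% held a GC box, and the median content of G and C was 52.4%. Neither stretch held CACCTG, a site of Snail and Zeb factors (17.3% of all), ACCGGT, the core of a grainyhead-like site (1.86%), or TGACTCA, an AP-1 site (4.45%), on either strand. None of the 4 motifs contains another. These matches describe letters in this window and say nothing on binding.

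The plakophilins, armadillo proteins that reinforce the plaque from the side, divided by clone. Pkp1 (chr1:135871395-135919207, minus strand), the form typical of stratified epithelia, had 1918, 781 and 1588 counts in control libraries, 0, 6 and 1 counts in KO1 and 483, 669 and 423 counts in KO2. It was thus near the limit of detection in KO1 and at 8.0 ± 1.62 CPM (SD, n = 3) in KO2, against 16.6 ± 3.05 CPM in control cells. The fitted log2 fold change in KO1 was -9.02 (standard error 0.53, adjusted p = 9.0e-07), but it rests on 7 counts in all and was -10.78 without replicate 2, which held 6 of them. In KO2 it was -1.05 (0.33, 0.022). The KO2 call was lost without control replicate 1 (adjusted p = 0.051), control replicate 3 (0.080), KO2 replicate 1 (0.060) or KO2 replicate 3 (0.072).

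Pkp3 (chr7:141078218-141090510, plus strand), found in most epithelia, had the lowest level per kilobase of the members in control cells. It had 527, 141 and 355 counts there, 22, 21 and 4 counts in KO1 and 285, 362 and 308 counts in KO2. KO1 was 18.4-fold lower (log2 fold change -4.18, standard error 0.46, adjusted p = 4.8e-05). In KO2 all 3 libraries, at 4.88, 5.12 and 4.56 CPM, lay above the control libraries at 4.20, 2.60 and 4.49 CPM, a separation that 30.7% of all genes showed. The fitted difference was 0.36 (95% interval -0.50 to 1.23, adjusted p = 0.46). Pkp3 thus did not pass the test in KO2 in either direction.

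Pkp2 (chr16:16213318-16272712, plus strand), the plakophilin of simple epithelia and heart, fell in both clones. It stood at 38.4, 40.6 and 46.2 CPM in control libraries, at 18.8, 20.9 and 6.88 CPM in KO1 and at 14.4, 14.4 and 19.6 CPM in KO2. Replicate 3 of KO1, the KO1 library farthest from the rest of its group across all genes, was the lowest. Without it the log2 fold change in KO1 was -1.07 in place of -1.42 (adjusted p = 7.2e-04 in place of 0.0058). In KO2 it was -1.37 (standard error 0.35, adjusted p = 0.0085). Both calls were lost where a change of more than 2-fold was demanded (adjusted p = 0.13 in KO1 and 0.21 in KO2). The clones differed by -0.05 (95% interval -0.82 to 0.71). Of the sum of Pkp1, Pkp2 and Pkp3 per kilobase of transcript, Pkp2 made up 74.7% in control cells, 98.7% in KO1 and 61.7% in KO2, so that KO1 carried very little Pkp1 or Pkp3 transcript.

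Periplakin and envoplakin, partners in the scaffold of the cornified envelope, both fell in both clones. Ppl (chr16:5086291-5132421, minus strand) was at 116, 93.3 and 133 CPM in control libraries, at 8.71, 9.66 and 2.17 CPM in KO1 and at 11.6, 13.3 and 25.2 CPM in KO2. In each clone replicate 3 was the library farthest from the other two, lowest in KO1 and highest in KO2. The log2 fold change was -4.05 in KO1 (standard error 0.54, adjusted p = 1.5e-04) and -2.77 in KO2 (0.50, 0.0013). Without replicate 3 of the clone concerned they were -3.63 and -3.22. Evpl (chr11:116220559-116238077, minus strand) was at 35.4, 25.1 and 41.2 CPM in control libraries, at 1.23, 1.10 and 2.01 CPM in KO1 and at 0.634, 0.622 and 0.725 CPM in KO2. Its log2 fold change was -4.56 in KO1 (standard error 0.29, adjusted p = 1.5e-06) and -5.68 in KO2 (0.31, 8.7e-07).

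Perp, a tetraspan membrane protein needed for desmosome assembly in skin and known as a target of p53 and p63, fell in both clones and fell further in KO2. Perp (chr10:18845020-18857073, plus strand) had 34930, 12385 and 22984 counts in control libraries, 407, 764 and 202 in KO1 and 20, 23 and 15 in KO2. The means were 266 ± 32.9, 5.76 ± 2.39 and 0.297 ± 0.065 CPM (SD, n = 3 each). KO1 was 46.1-fold lower than control (log2 fold change -5.52, standard error 0.33, adjusted p = 1.0e-06) and KO2 was 896-fold lower (-9.81, 0.41, 2.2e-07).

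**Figure D2:**
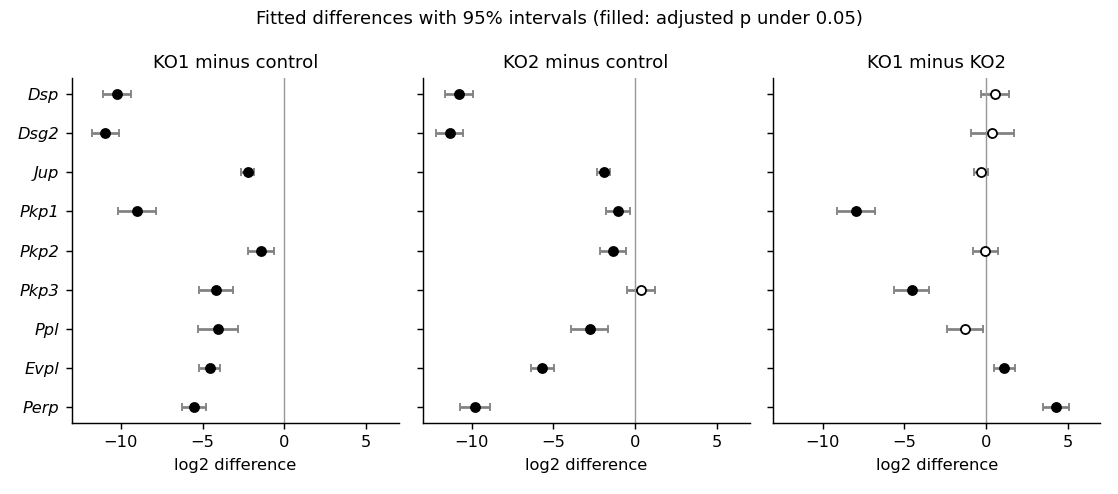
Fitted log2 differences (points) with 95% intervals (bars) for 9 members in KO1 against control, KO2 against control and KO1 against KO2, with filled points where the adjusted p was under 0.05. Dsc2 is left out because it had 2 counts in all clone libraries together. All 9 points lie left of 0 in KO1 against control, and Pkp1, Pkp3, Evpl and Perp are filled in the comparison of the clones.

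Set against each other, the clones differed in 4 of the 10 members. Pkp1 was lower in KO1, with 7 counts over 3 libraries against 1575 in KO2 (fitted log2 difference -7.97, standard error 0.52, adjusted p = 9.1e-06, and -9.73 without KO1 replicate 2). Pkp3 was 23.8-fold lower in KO1 (-4.55, 0.47, 1.2e-04). In the other direction Perp was 19.4-fold higher in KO1 (4.28, 0.35, 3.5e-05) and Evpl 2.19-fold higher (1.12, 0.28, 0.011), a call that limma-voom did not make (adjusted p = 0.087). Of all genes tested, 18.5% were called lower and 20.2% higher in KO1 than in KO2, so that 2 of 10 members in each direction is close to the share among all genes. The library ranges were separate for 4 members lower and 3 higher in KO1, against 26.2% and 28.7% of all genes. Ppl was lower in KO1 by 1.28 on the log2 scale without passing the test (95% interval -2.37 to -0.19, adjusted p = 0.064). With the 6 clone libraries pooled against the 3 control libraries, 8 of 10 members were called lower, against 21.2% of all genes. The other two were Pkp1 (log2 fold change -2.05, adjusted p = 0.31) and Pkp3 (-0.58, 0.71), whose spread within the pooled group includes the difference between the clones. For these genes the pooled value depends on the method. Pkp1 was at -5.34 with limma-voom and -5.04 with the clone contrasts averaged, Pkp3 was at -1.91 with the averaged contrasts, and all 3 of these were called.

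To compare levels between genes, CPM were divided by the length of the longest annotated transcript in kilobases. The order in control cells was Jup at 139 ± 37.2, Perp at 136 ± 16.8, Dsp at 40.9 ± 15.6, Dsg2 at 23.7 ± 7.24, Ppl at 18.4 ± 3.18 and Pkp2 at 14.2 ± 1.36 CPM per kb (SD, n = 3). Evpl, Dsc2, Pkp1 and Pkp3 followed between 5.31 and 1.29 CPM per kb. Jup and Perp overlapped, as did neighbours from Dsp to Pkp2 and from Evpl to Pkp1, while Perp and Dsp, Pkp2 and Evpl, and Pkp1 and Pkp3 were separate. In both clones Jup came highest, at 29.5 ± 1.32 CPM per kb in KO1 and 36.5 ± 3.20 in KO2, followed by Pkp2 at 5.30 ± 2.58 and 5.51 ± 1.01. Below them the order was Perp then Ppl in KO1, and Ppl, Pkp1 and Pkp3 in KO2, where Ppl overlapped Pkp1 and Pkp1 overlapped Pkp3.

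Summed over the 10 genes, the level was 387 ± 82.6 CPM per kb in control cells, 39.2 ± 4.12 in KO1 and 48.3 ± 1.92 in KO2, which is 10.1% and 12.5% of control. The make-up of what remained differed from that of control cells. Jup rose from 35.7% of the summed level in control cells to 75.9% in KO1 and 75.4% in KO2, without overlap of the library ranges (34.4 to 38.1%, 68.2 to 86.3% and 70.4 to 78.0%). Plakophilins made up 5.01% in control cells, 13.3% in KO1 and 18.4% in KO2. Desmoplakin made up 10.3% in control cells, 0.0875% in KO1 and 0.0478% in KO2, and the cadherins 7.19%, 0.0368% and 0.0179%. Perp made up 35.6% in control cells, 7.38% in KO1 and 0.314% in KO2. These shares are a description of the same values and carry no test of their own.

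**Figure D3:**
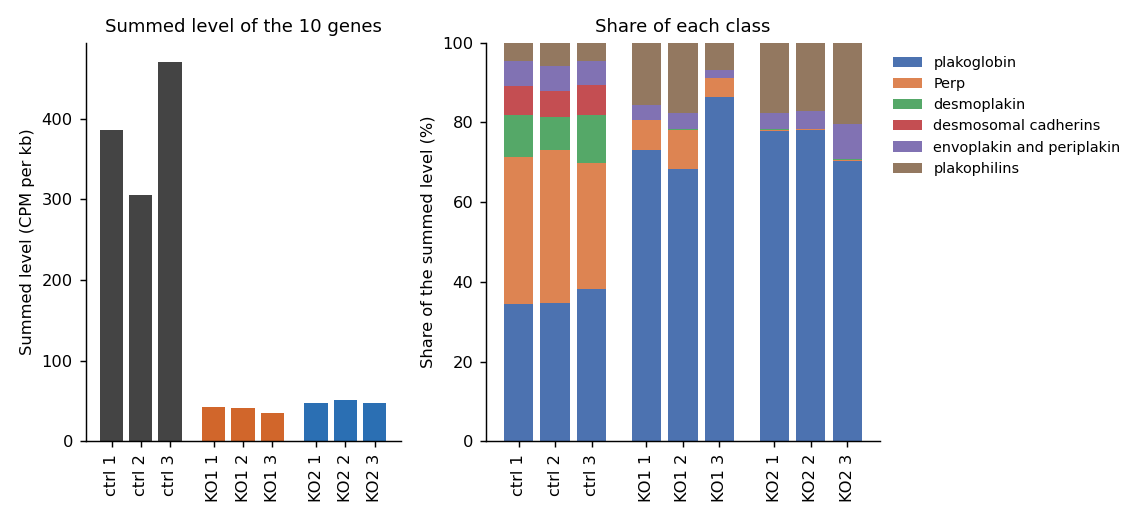
Left, summed level of the 10 genes in each library in CPM per kb of transcript. Right, share of that sum in percent for plakoglobin (Jup), Perp, desmoplakin (Dsp), the cadherins (Dsg2 and Dsc2), Ppl with Evpl, and the plakophilins. The clone means are 10.1% and 12.5% of the control mean, and Jup fills 68.2 to 86.3% of each.

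The nearest protein-coding gene on each side of each member was read in the same fit, a choice made after the members' values were seen. Of 20 such neighbours, 14 were tested. In KO1, 10 were called lower and 1 higher, and in KO2 7 were lower and 1 higher, against 30.0% and 26.1% of all genes called lower. Between the clones, 5 of the 14 were lower and 3 higher in KO1, against 18.5% and 20.2% of all genes. For Pkp1 and Pkp3, the neighbour on one side was tested, and it was lower in KO1 than in KO2 like the member itself. Tnnt2, a cardiac troponin gene 19134 bp from Pkp1, was at 106 CPM in control cells, 0.592 in KO1 and 4.96 in KO2. Its log2 difference between KO1 and KO2 was -3.08 (adjusted p = 2.9e-06). Sigirr, an inhibitory relative of the interleukin-1 receptor, lies 664 bp from Pkp3. It was at 62.9 CPM in control cells, 0.513 in KO1 and 11.8 in KO2, a difference of -4.50 between the clones (2.1e-05). Of the tested neighbours of Evpl and Perp, the members that were higher in KO1, none was called higher in KO1. Next to Evpl, Ten1 (log2 difference -0.93, adjusted p = 9.8e-04) and Srp68 (-0.29, 0.040) were lower in KO1 than in KO2. Next to Perp only Tnfaip3, 143836 bp away, was tested, at -1.73 without passing the test (0.22). On either side of Jup, Hap1 went from 51.9 CPM in control cells to 3.52 in KO1 and 1.99 in KO2, and P3h4 from 85.6 to 0.125 and 0.0104 CPM, so that by these means Jup kept a larger part of its level than both neighbours. Ubn1, a histone chaperone subunit that lies 1 bp from Ppl, was instead higher in both clones, at 47.4 CPM in control cells, 86.2 in KO1 and 57.3 in KO2.

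Most keratins, the intermediate filaments that desmoplakin binds in epithelia, fell, while other filament genes were mixed. Of 17 tested keratins and other filament genes, 12 were called lower and 1 higher in KO1, where 30.0% and 29.9% of all genes were. In KO2, 11 were lower and 0 higher, against 26.1% and 25.3% of all genes, by edgeR's quasi-likelihood test. The median log2 fold change of the filament genes was -7.37 in KO1 and -6.03 in KO2. It was -4.80 and -2.73 with genes at 3 counts or fewer set to that floor. Krt8, Krt18 and Krt19, the keratins of simple epithelia, stood at 5377, 3408 and 2292 CPM in control cells and below 0.5 CPM in every clone library. Vim, the filament protein of mesenchymal cells, was at 2583 CPM in control cells, 3296 in KO1 and 3217 in KO2 and did not pass the test (adjusted p = 0.14 and 0.20). Nes, which encodes nestin, fell from 352 CPM to 0.330 in KO1 and 0.530 in KO2 (log2 fold change -10.10 and -9.37). Synm, a filament protein of muscle, rose in KO1 from 1.74 to 26.9 CPM and was at 1.42 CPM in KO2, and the difference between the clones was called (log2 difference 4.24, adjusted p = 9.6e-05).

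Hemidesmosome and plakin genes, which tie the same filaments to the basement membrane, gave 8 lower and 1 higher of 11 tested in each clone. Their median log2 fold change was -1.11 in KO1 and -0.99 in KO2. Among all genes, 30.0% were lower and 29.9% higher in KO1, and 26.1% and 25.3% in KO2. Itgb4, the integrin chain specific to hemidesmosomes, fell from 770 CPM in control cells to 2.41 in KO1 and 7.08 in KO2. Lamb3, a chain of its laminin ligand, fell from 268 CPM to 0.687 and 2.95. Plec, which encodes plectin, fell less, from 1046 to 490 and 529 CPM. Macf1, a plakin that links microtubules and actin, rose in KO1 (log2 fold change 0.68, adjusted p = 0.0016) and fell in KO2 (-0.48, 0.013).

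The adherens junction shares plakoglobin with the desmosome. Of 14 tested components, 7 were lower and 4 higher in KO1, where 30.0% and 29.9% of all genes were. The 4 higher genes in KO1 were thus close to the share of all genes. In KO2, 8 were lower and 0 higher, against 26.1% and 25.3% of all genes. Cdh1, which encodes E-cadherin, fell from 533 CPM in control cells to 1.34 in KO1 and 0.525 in KO2. Cdh11, another cadherin, had the largest fall of this list, from 30.5 CPM to 0.0502 in KO1 and 0.0260 in KO2. Its log2 fold changes were -9.33 and -10.13, with at most 9 counts in any clone library. Ctnnb1, which encodes β-catenin, the close relative of plakoglobin, stayed at 847 CPM in KO1 against 865 in control cells (adjusted p = 0.88) and fell to 634 in KO2 (0.049). Cdh2, which encodes N-cadherin, was 59.0 CPM in control cells, rose to 112 in KO1 and was 53.3 in KO2, with a log2 difference of 1.08 between the clones (adjusted p = 8.9e-05).

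Among other desmosomal genes that were tested, Cdsn, which encodes corneodesmosin, fell in both clones, from 194 ± 75 CPM in control cells to 11.2 in KO1 and 30.7 in KO2 (adjusted p = 5.7e-04 and 0.0060). Pkp4, a distant plakophilin relative, and Pnn, which encodes pinin, did not pass the test in either clone, with log2 fold changes between -0.36 and -0.08. That makes 1 of 3 tested genes lower in each clone. Of 25 precursors and enzymes of the cornified envelope, 11 were tested. In KO1, 5 were lower and 2 higher, against 30.0% and 29.9% of all genes. In KO2, 5 were lower and 3 higher, against 26.1% and 25.3%, so that the 3 higher genes were close to the share of all genes. Sprr1a, a small proline-rich precursor, dominated the list at 551 CPM in control cells and fell to 165 in KO2 and 27.1 in KO1, where replicate 2 was highest and replicates 1 and 3 were at 18.5 and 7.95 CPM. Its relative Sprr1b fell from 0.850 CPM to 0.0106 in KO1 and rose to 4.22 in KO2. Klk7, a protease that cleaves corneodesmosomes, had 1 count at most in control and KO1 libraries and 26 to 101 counts in KO2. Between the clones, 6 of these 11 genes were lower and 2 higher in KO1 than in KO2, against 18.5% and 20.2% of all genes.

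**Figure D4:**
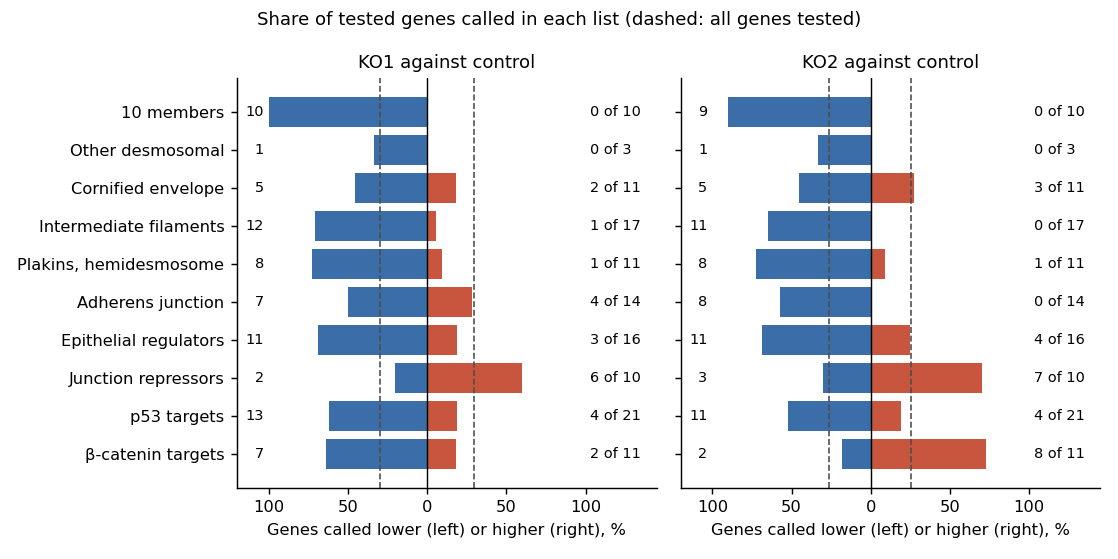
Percent of the tested genes of each list that were called lower (left of 0) or higher (right of 0) in KO1 and in KO2 against control, with the numbers called beside the bars and dashed lines at the shares among all 17672 genes tested. The members reach 10 of 10 lower in KO1 and 9 of 10 in KO2, and the junction repressors and, in KO2, the β-catenin targets extend to the right.

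Regulators known to favour epithelial genes mostly fell, with 11 of 16 tested lower and 3 higher in KO1 and 11 lower and 4 higher in KO2. Among all genes, 30.0% were lower and 29.9% higher in KO1, and 26.1% and 25.3% in KO2. The 4 regulators higher in KO2 were thus close to the share of all genes. Klf5 went from 104 CPM in control cells to 0.606 in KO1 and 5.06 in KO2, Foxa2 from 57.3 to 0.0836 and 2.27, and Ehf from 48.7 to 15.9 and 6.64. Trp63, which encodes p63, a regulator of Perp and other desmosomal genes in skin, rose against this direction, from 0.299 CPM to 12.4 in KO1 (log2 fold change 5.30, adjusted p = 1.8e-05) and 4.36 in KO2 (3.79, 1.4e-04). Foxa1 rose as well, from 0.620 CPM to 9.55 in KO1 (log2 fold change 3.94) and 12.4 in KO2 (4.32). Of 10 repressors of junction genes, 6 were higher and 2 lower in KO1, and 7 were higher and 3 lower in KO2. Zeb1 went from 30.5 CPM in control cells to 77.4 and 66.8, Twist2 from 3.15 to 24.1 and 23.1, and Prrx1 from 47.4 to 367 and 346. Twist1 and Snai3 were among those that fell.

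Perp was set beside 20 other p53 targets and Trp53 itself. Of these 21 genes, 13 were lower and 4 higher in KO1, where 30.0% and 29.9% of all genes were. In KO2, 11 were lower and 4 higher, against 26.1% and 25.3% of all genes. The median log2 fold change of the 21 genes was -0.71 in KO1 and -0.81 in KO2. Cdkn1a, the cell cycle inhibitor p21, went from 375 CPM in control cells to 106 in KO1 and 173 in KO2, and Pmaip1, a pro-apoptotic BH3 protein, from 41.5 to 3.45 and 7.67. Sesn1, a stress-response gene, rose from 6.37 to 57.0 and 26.9 CPM. Trp53 was at 238 CPM in control cells, was lower in KO1 at 170 CPM (log2 fold change -0.49, adjusted p = 0.037) and stood at 240 CPM in KO2 (0.97). Gene-level counts do not separate floxed exons from the rest. Between KO1 and KO2, where Perp differed 19.4-fold, 5 of the 21 were lower and 5 higher in KO1, against 18.5% and 20.2% of all genes.

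Plakoglobin is a close relative of β-catenin, and general targets of β-catenin were read as well. Of 11 tested, 7 were lower and 2 higher in KO1, where 30.0% and 29.9% of all genes were. In KO2, 2 were lower and 8 higher, against 26.1% and 25.3% of all genes. Between the clones, 8 of 11 were lower in KO1 than in KO2, where 18.5% of all genes were. Rnf43, a feedback inhibitor of Wnt signalling, was at 6.44 CPM in control cells, 0.0911 in KO1 and 22.6 in KO2. Sp5, a transcription factor induced by Wnt, was at 0.520, 0.0173 and 1.80 CPM. Ccnd1, which encodes cyclin D1, fell in both, from 1154 to 78.7 and 471 CPM, and Lgr5, a stem cell marker, rose in both, from 0.0315 CPM to 26.7 in KO2 and to 3.67, 3.79 and 25.4 CPM in the KO1 libraries, where replicate 3 was by far the highest.

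Markers of other cell types moved with the clones beside these genes. Among all genes, 30.0% were called lower and 29.9% higher in KO1, and 26.1% and 25.3% in KO2. Of 11 tested fibroblast and stellate cell markers, 8 were higher and 1 lower in KO1, and 9 were higher and 0 lower in KO2. Their summed level was 432 to 838 CPM in control libraries, 13872 to 17559 in KO1 and 6854 to 9227 in KO2. Col1a1 went from 99.4 CPM in control cells to 8530 in KO1 and 4735 in KO2, and Postn from 0.445 to 2346 and 1210 CPM. Dcn, the 1 marker called lower in KO1, was at 74.6 CPM in control cells, 4.34 in KO1 and 92.0 in KO2. Lrat, a stellate cell marker that was listed but not tested, had 3 counts or fewer in every library. Of 7 tested hepatocyte markers, 5 and 6 were lower, and the summed level went from 632 to 1009 CPM in control libraries to 2.13 to 3.94 in KO1 and 0.917 to 1.34 in KO2, with Hnf4a at 0 in every clone library. Of 9 tested biliary markers 6 were lower and 1 higher in each clone, with Epcam at 22.0, 0.0334 and 0.00493 CPM, while the summed biliary level went from 4543 to 5800 CPM in control libraries to 10616 to 11076 in KO1 and 7634 to 11081 in KO2. Most of that sum in the clones was Spp1 alone, which went from 2474 CPM in control cells to 10576 and 9640 CPM. Sox9, a regulator of bile duct cells, did not pass the test in either clone, at 127 CPM in control cells, 232 in KO1 and 170 in KO2, whereas the means of Krt19, Krt7 and Epcam were below 1 CPM in both. Of 4 tested haematopoietic markers 3 were lower in each clone. Cd14, the most abundant, was at 100 to 157 CPM in control libraries, 19.5 to 28.2 in KO1 and 39.0 to 42.8 in KO2. Cd3e had 3 counts or fewer in every library. Endothelial markers summed to at most 2.47 CPM in any library, with 1 of 3 tested lower in KO1 and 0 called in KO2. The part of these markers in the results on desmosomal genes was not tested.

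The genes whose pattern was closest to that of Dsp over the 9 libraries, by Pearson's r of log2 CPM among 10877 genes with a mean of at least 5 CPM, were Cpm, which encodes carboxypeptidase M (r = 0.9995), Eps8l3, an actin regulator of the Eps8 family (0.999), and Acp5, an acid phosphatase (0.999). Cpm stood at 124 CPM in control cells, 0.0238 in KO1 and 0.00471 in KO2. The closest to Perp were Mt2, which encodes a metallothionein (0.995), Faf1 (0.993) and Pear1 (0.993), with Mt2 at 217, 7.78 and 0.992 CPM. These values largely follow the gap between control and clone libraries, which the 9 points share, and are given as a description.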

How the data were processed

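Messenger RNA of Vcam1 ctrl, Vcam1 KO1 and Vcam1 KO2 PPTR cells was sequenced in 3 stranded paired-end libraries per condition. The authors estimated counts per transcript with kallisto 0.46.1 on mm10, and the deposited table holds whole-number counts per gene symbol without normalization. Libraries were grouped by their labels. Here, TMM scaling and the filter filterByExpr were applied with edgeR 4.0.16 in R 4.3.3, and 17672 of 55276 genes passed. Each clone against control and KO1 against KO2 were tested in a fit with 3 groups, and both clones against control in a fit with 2 groups. Adjusted p values come from the quasi-likelihood test of edgeR, adjusted by Benjamini-Hochberg over all genes tested (threshold 0.05). Correlations used log2 CPM with a prior count of 2, and 3 counts per library was taken as the floor of detection. Totals of 53415907 to 125223073 counts put that floor at 0.0239 to 0.0554 CPM, so that the spread between libraries limits precision.

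Transcript lengths, positions and neighbours came from GENCODE vM21 on GRCm38, an earlier release than the one the authors counted on, and promoters from RefSeq. The members and all lists (other desmosomal, cornified envelope, filament, plakin and hemidesmosome, adherens junction, epithelial regulator, junction repressor, p53 target, β-catenin target, and cell type marker genes) were chosen with earlier results of these data known. Named genes were the members, Vcam1, the 4 most abundant genes of each list with its 2 largest rises and falls in each comparison, and the 3 genes most like Dsp and Perp. Neighbouring genes, and list genes named outside that rule, were chosen after their values were seen. Some list genes are not reported here. The alternatives tried were limma-voom (limma 3.58.1), DESeq2 1.42.0, other normalizations and filters, a demand for more than 2-fold, 6-library fits, the average of the clone contrasts, other transcript lengths, and leaving out each library. The fit was tested on simulated counts with known changes.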

Additional observations from a re-analysis of the deposited data

Results flagged for a closer look

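Among the desmosomal genes, 4 were picked out because KO1 and KO2 differed by the test of the difference itself (edgeR's quasi-likelihood test). The log2 difference of KO1 from KO2 was -7.97 for Pkp1, -4.55 for Pkp3, 4.28 for Perp and 1.12 for Evpl. For each of them the 3 libraries of a clone did not overlap with those of the other, as was so for 4 lower and 3 higher of the 10 members, against 26.2% and 28.7% of all genes tested. Groups of 3 libraries were not tested for outlying libraries, beyond comparing replicates with each other and leaving out each library.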

How the results depend on the processing

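The number of members called lower stayed within 1.5 times of the reported number under every alternative run for KO1, KO2 and both clones against control, including each library left out. Between the clones, 2 members were higher in KO1, and 1 with limma-voom (Evpl, adjusted p = 0.087) or with more than 2-fold demanded. That demand also ended the calls of Pkp2 in KO1, KO2 and the pooled comparison, of Pkp1 in KO2 and of Vcam1 in KO1 and the pooled comparison. Calls gained were Jup between the clones in the 6-library fit (-0.33, adjusted p = 0.036), Ppl between the clones with DESeq2 (0.021) and without the filter (0.024), Pkp1 pooled with limma-voom (-5.34, 0.025) and, with the clone contrasts averaged, Pkp1 (-5.04, 1.4e-06) and Pkp3 (-1.91, 8.6e-04), and the cause was not tested. The difference of Pkp2 between the clones, not called in any fit, turned from -0.05 to 0.0070 with upper-quartile scaling, 0.30 without KO1 replicate 3 and 0.08 without KO2 replicate 3, and that of Vcam1, 0.09 with all libraries, lay between -0.071 and 0.18 with each library left out. With the mean transcript length the Jup share was 51.6% in control, 86.5% in KO1 and 83.1% in KO2, and the summed level 12.7% and 16.3% of control.

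A filter at a mean of 1 CPM left 4 cornified envelope genes, of which 3 were lower and 0 higher in KO1, 2 lower in KO2, and 3 lower and 0 higher between the clones. It left 3 filament genes lower between the clones, 0 hemidesmosome genes and 2 epithelial regulators higher in KO2, and 1 repressor lower in KO1, with fewer genes tested. With limma-voom, 1 filament gene was higher in KO2, 0 biliary, 0 hepatocyte and 0 haematopoietic genes were higher and 1 endothelial gene lower between the clones, and the cause was not tested. No paired analysis was possible because the labels give no replicate numbers that link libraries of different conditions. At these depths a level under 3 counts could not be told from 0.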
